A study of Mus musculus with 16 samples.

Results

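The summits described here are those near the transcription starts of protein-coding genes. A summit is the base of highest signal within a ChIP-seq peak, and a promoter summit was one lying no more than 1 kb from the start of a protein-coding transcript in the GENCODE M21 basic annotation of the mouse genome mm10. Of the 226962 summits on chromosomes 1 to 19, X and Y, 9347 (4.12%, 95% interval 4.037 to 4.201) met this rule, whereas 1.97% of these chromosomes lies within 1 kb of such a start. Promoter summits less than or equal to 100 bp from the next were joined into 7485 promoter sites, and the remaining summits into 165367 other sites. The promoter sites served 5983 of 21851 coding genes.

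The libraries came from OG2-MEFs, fibroblasts of mouse embryos with an Oct4-GFP reporter, that had received pMX retroviruses for Sox2, Klf4 and a POU factor. The Oct4 antibody was used for 6 libraries, which are Oct4 in Oct4-SK cells at days 1, 5 and 7, Oct4defSox2 from its own SK cocktail at days 1 and 5, and Oct4 S151M in its own cocktail at day 1. The Sox2 antibody was used for 6 libraries, at days 1 and 5 in each of the Oct4-SK, Oct6-SK and Oct4defSox2-SK cocktails. The Oct6 antibody was used for 1 library, Oct6 M151S in its own cocktail, which is titled day 1 although another of its labels gives a later day. Oct4defSox2 is Oct4 with a changed Sox2 interface, and S151M and M151S swap a residue between Oct4 and Oct6. All cocktails held the Sox2 and Klf4 viruses. There was 1 library per group, so no value has a replicate, and every interval below covers counting error among summits or genes only.

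Promoters differ from most of the genome in base composition. Many coding genes start in CpG islands, stretches rich in GC where general factors bind GC boxes, CCAAT boxes and ETS or NRF1 words. POU factors such as Oct4 and Oct6 read the octamer with a bipartite domain, can sit with Sox2 on the composite SoxOct element, and can pair with another POU molecule on the palindromic MORE element or its spaced form MORE+1. Sox2 bends DNA through its HMG box at short words of the CCATTGT or CTTTGTT kind.

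Of the 117 promoter sites in 5 or more libraries 48 had SoxOct, MORE or MORE+1. Sequences are shown for recurrent promoter sites that are described below, some of which have none of these elements. Each covers 60 bp to either side of the centre of a site, or less where an annotated UTR begins, and is read from the GRCm38 genome in the direction of the gene. The first set has MORE, in capitals together with any octamer, CCAAT box or GC box, at promoter sites that were found in all 6 libraries of the Oct4 antibody.
Rnf169 (chr7:99980463-99980583, minus strand): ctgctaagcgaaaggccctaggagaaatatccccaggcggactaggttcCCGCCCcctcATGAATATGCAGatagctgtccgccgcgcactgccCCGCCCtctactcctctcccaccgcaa
Gabarapl2 (chr8:111939854-111939974, plus strand): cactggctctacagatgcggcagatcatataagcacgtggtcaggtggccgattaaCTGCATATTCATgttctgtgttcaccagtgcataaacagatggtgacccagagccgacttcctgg
Vamp1 (chr6:125215166-125215286, plus strand): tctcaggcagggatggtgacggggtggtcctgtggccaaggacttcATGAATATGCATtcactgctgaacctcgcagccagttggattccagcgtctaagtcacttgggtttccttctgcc
Polr2a (chr11:69759034-69759154, minus strand): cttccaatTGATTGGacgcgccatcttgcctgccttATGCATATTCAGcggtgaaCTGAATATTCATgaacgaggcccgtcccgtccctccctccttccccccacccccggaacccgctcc
Crlf2 (chr5:109558028-109558148, minus strand): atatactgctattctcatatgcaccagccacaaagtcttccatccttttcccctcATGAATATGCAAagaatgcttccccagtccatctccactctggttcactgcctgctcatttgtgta
Crlf2 (chr5:109558438-109558558, minus strand): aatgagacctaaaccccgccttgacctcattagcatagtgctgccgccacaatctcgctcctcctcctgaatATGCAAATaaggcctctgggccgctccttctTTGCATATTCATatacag
The second set has SoxOct in capitals, again with octamers, CCAAT boxes and GC boxes, at the sites with this element in the most libraries, and Phc1, where the capitals mark Sox words.
Nrarp (chr2:25180639-25180757, plus strand): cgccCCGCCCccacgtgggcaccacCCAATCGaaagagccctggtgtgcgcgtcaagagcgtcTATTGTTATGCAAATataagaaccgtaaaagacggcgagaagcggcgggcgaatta
Otud7b (chr3:96103939-96104059, plus strand): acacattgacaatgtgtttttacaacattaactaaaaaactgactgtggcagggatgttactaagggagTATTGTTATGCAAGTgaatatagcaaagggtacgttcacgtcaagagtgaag
Phc1 (chr6:122340595-122340715, minus strand): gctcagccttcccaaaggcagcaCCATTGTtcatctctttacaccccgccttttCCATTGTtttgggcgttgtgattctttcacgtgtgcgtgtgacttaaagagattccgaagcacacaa
The third set is the site found in the most libraries, Arid5b, with its CCAAT box in capitals, and the Mobp site, which was in every Sox2 library and has CTTTGTT words in capitals.
Arid5b (chr10:68137509-68137629, minus strand): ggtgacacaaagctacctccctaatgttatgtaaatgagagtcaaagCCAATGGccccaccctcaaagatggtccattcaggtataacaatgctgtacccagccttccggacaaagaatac
Mobp (chr9:120149503-120149623, plus strand): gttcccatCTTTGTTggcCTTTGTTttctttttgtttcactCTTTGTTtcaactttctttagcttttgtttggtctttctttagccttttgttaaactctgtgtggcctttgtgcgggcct
At Vamp1 the MORE match was ATGAATATGCAT, with 0 mismatches, and lay 8 bp from the centre of the summits. Matches are given as read on the plus strand. The matches at Rnf169 and Gabarapl2 were both CTGCATATTCAT, with 1 mismatch, 4 and 2 bp from the centre. The Polr2a site held 2 matches, 0 and 19 bp from the centre. At Nrarp the SoxOct match TATTGTTATGCAAAT had 1 mismatch and lay 10 bp from the centre, and Pipox, whose site lies in an annotated UTR, had TATTGTCATGCAAAT with 1 mismatch.

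The share of summits at coding promoters differed between libraries and was higher at day 5 than at day 1 for each factor and cocktail with both days. It ranged from 1.88% for Sox2 in Oct4defSox2-SK at day 1 to 9.17% for the same antibody and cocktail at day 5. For Oct4, promoters held 227 of 8199 summits (2.77%) at day 1, 344 of 4846 (7.10%) at day 5 and 130 of 3614 (3.60%) at day 7. The rise from day 1 to day 5 was 4.33 percentage points (3.54 to 5.16), and the fall from day 5 to day 7 was a difference of -3.50 points (-4.44 to -2.55). At scores of at least 10 the latter was -1.17 points (-2.50 to 0.19), within counting error. The day 7 library was sequenced at another read length than the others, and the part of this in its values was not tested.

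Oct4defSox2 had 1236 promoter summits of 31060 (3.98%) at day 1 and 73 of 1034 (7.06%) at day 5, a difference of 3.08 points (1.66 to 4.82). With the Oct4-SK cocktail, Sox2 went from 571 of 15219 (3.75%) to 472 of 5793 (8.15%). With Oct6-SK it went from 73 of 3242 (2.25%) to 136 of 2669 (5.10%), and with Oct4defSox2-SK from 109 of 5793 (1.88%) to 1977 of 21551 (9.17%). The corresponding differences were 4.40 points (3.65 to 5.18), 2.84 points (1.88 to 3.85) and 7.29 points (6.75 to 7.80). Each of these 5 differences was past counting error. With equal numbers of the strongest summits in both libraries, the Oct4defSox2 difference was 1.93 points (-0.14 to 4.03) and no longer past it.

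**Figure D1:**
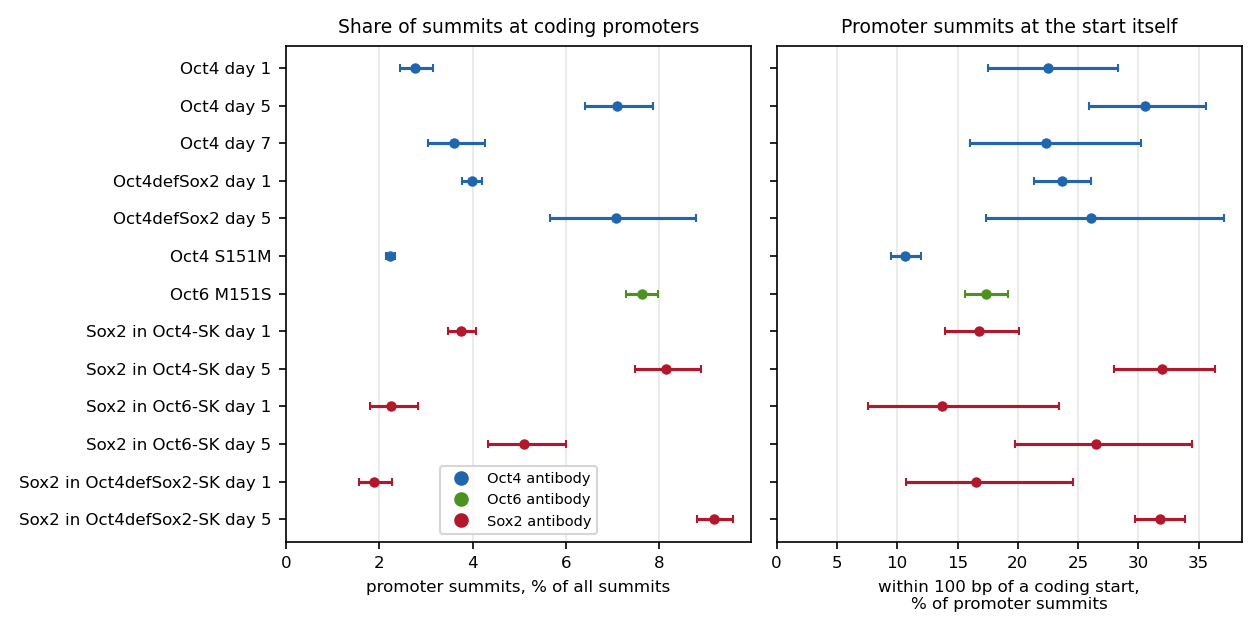
The left panel plots the promoter share of all summits in each library (%), and the right panel the promoter summits within 100 bp of a coding start (% of promoter summits). Points are single libraries coloured by antibody and bars are Wilson 95% intervals. Shares at day 5 lie between 5.10% and 9.17%, above the day 1 share of the same factor and cocktail in every case.

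Between cocktails the shares moved less evenly. At day 1, Oct4defSox2 was 1.21 points above Oct4 (0.78 to 1.61). By day 5 they stood -0.04 points apart (-1.64 to 1.82), whereas at scores of at least 10 Oct4defSox2 was 4.16 points higher (1.63 to 7.24). Oct4 S151M had 2262 promoter summits, more than any other library, but 101151 summits in all, and its share of 2.24% was 0.53 points below that of Oct4 at day 1 (-0.92 to -0.19). This small difference was not past counting error within 2 kb or at scores of at least 10, and it was 0.48 points (-0.05 to 1.00) with equal numbers of summits. Oct6 M151S had 1737 promoter summits of 22791 (7.62%), 4.85 points above Oct4 at day 1 (4.35 to 5.34).

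For Sox2 at day 1, the shares in Oct6-SK and Oct4defSox2-SK were below that in Oct4-SK, by differences of -1.50 points (-2.05 to -0.86) and -1.87 points (-2.32 to -1.39). The day 5 differences were -3.05 points (-4.12 to -1.93) for Oct6-SK and 1.03 points (0.20 to 1.81) for Oct4defSox2-SK. With equal numbers of the strongest summits, the day 1 difference of Oct6-SK was 0.15 points (-0.56 to 0.87) and the day 5 difference of Oct4defSox2-SK was -0.97 points (-1.94 to 0.0026).

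In 4 of the 5 series a larger share of promoter summits lay within 100 bp of the start at day 5 than at day 1, past counting error. Within 100 bp of a coding start were 16.8% of the promoter summits of Sox2 in Oct4-SK at day 1 and 32.0% at day 5, a difference of 15.2 points (9.96 to 20.4). The difference was 15.3 points (6.92 to 21.4) in Oct4defSox2-SK, 12.8 points (0.97 to 22.8) in Oct6-SK and 8.06 points (0.59 to 15.1) for Oct4. For Oct4defSox2 it was 2.40 points (-6.62 to 13.7), within counting error, and the median distance was 318 bp at day 1 and 327 bp at day 5. The median distance of Sox2 summits in Oct4-SK to the nearest start was 359 bp at day 1 and 185.5 bp at day 5. Oct4 at day 7 did not continue this, with 22.3% within 100 bp and a median of 395.5 bp, close to the 22.5% and 362 bp of day 1.

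In 12 of the 13 libraries more than 50% of promoter summits lay upstream of the start, from 52.0% for Sox2 in Oct4-SK at day 1 to 71.5% for Oct4 at day 7. Oct6 M151S stood apart, with 38.2% upstream (36.0 to 40.5) and a median position 123 bp downstream. Oct4 S151M was the most dispersed, with 10.7% (9.449 to 11.99) within 100 bp and a median distance of 541 bp. In bins of 100 bp, the first bin downstream of the start held 9.84% of the M151S promoter summits, its highest share, and 3.49% of those of S151M, whose lowest share (2.34%) was in the next bin downstream.

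**Figure D2:**
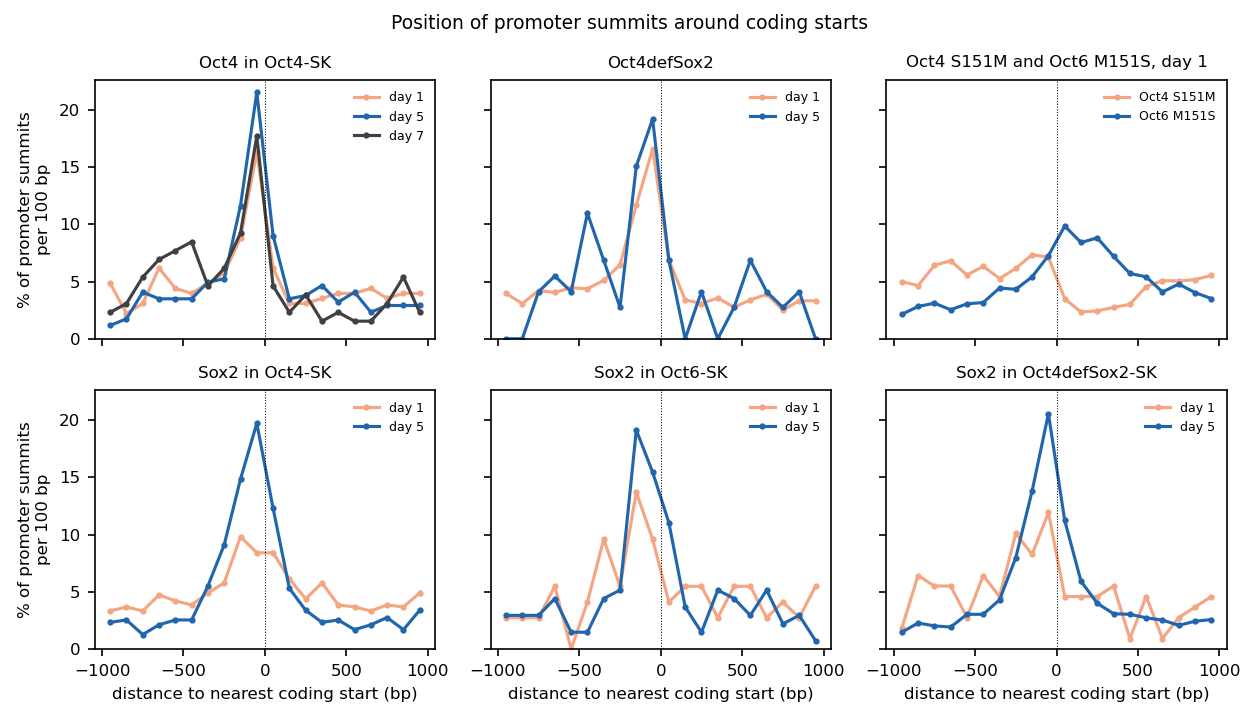
Each panel plots the percentage of promoter summits per 100 bp (y axis) against the signed distance to the nearest coding start in bp (x axis, negative is upstream), 1 line per library. Day 5 profiles peak in the bins just upstream of the start, and the Oct6 M151S profile has its highest values downstream.

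Scores were neither higher nor lower at promoters throughout. The score of a summit is the −log10 of its MACS2 p-value, and scores were compared as percentiles within a library because they are not scaled between libraries. The median percentile of promoter summits was 39.2 for Oct4 at day 1, 39.5 at day 5 and 59.8 at day 7, against 50.9, 50.6 and 49.7 for the other summits. It was 40.7 for Oct4defSox2 at day 1 and 60.4 at day 5. Among the Sox2 libraries it lay between 33.1 in Oct4defSox2-SK at day 1 and 49.4 in Oct4-SK at day 5. The fold enrichment, deposited for both swapped proteins, had a median of 6.89 at promoters and 7.33 elsewhere for S151M, and of 2.42 at both for M151S. All 2262 promoter summits of S151M had a q-value under 0.05, as did its other summits. For M151S it was 400 of 1737 (23.0%, 21.1 to 25.1) and 21.1% of the others, a difference of 1.97 points (-0.03 to 4.08) within counting error.

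Of the Oct4 promoter summits at day 1, 99 of 227 (43.6%) still had an Oct4 summit within 100 bp at day 5, compared with 1913 of 7972 (24.0%) of the other summits. The difference was 19.6 points (13.3 to 26.2). For Oct4defSox2 the shares were 65 of 1236 (5.26%) and 664 of 29824 (2.23%), a difference of 3.03 points (1.91 to 4.43). For Sox2, promoter and other summits were kept to a similar degree in Oct4-SK (7.71% and 7.21%, difference 0.50 points, -1.47 to 3.01) and in Oct4defSox2-SK (33.0% and 32.7%, difference 0.34 points, -7.87 to 9.69). In Oct6-SK 13 of 73 promoter summits were kept, 7.90 points above the others (0.72 to 18.3), a difference that 5 of the alternative settings brought within counting error. At scores of at least 10, the Sox2 difference in Oct4-SK was 7.43 points (1.10 to 15.8).

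The Oct4 promoter summits that were kept differed in motif from those that were lost by day 5. MORE or MORE+1 lay within 100 bp of 29 of 99 kept summits (29.3%) and of 5 of 128 lost summits (3.91%), a difference of 25.4 points (15.95 to 35.24). SoxOct was at 24 kept summits (24.2%) and 13 lost ones (10.2%), a difference of 14.1 points (4.29 to 24.3). A CCAAT box was at 19 kept summits (19.2%) and 1 lost summit (0.78%). The kept summits were also the stronger ones, with a median percentile of 68.6 against 24.3, and the part of this in the motif differences was not tested.

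The same held for MORE with Oct4defSox2, where the element was at 26 of 65 kept promoter summits (40%) and 52 of 1171 lost ones (4.44%), a difference of 35.6 points (24.5 to 47.7). SoxOct was at 4 kept (6.15%) and 65 lost summits (5.55%). For Sox2 in Oct4-SK, the Sox word CCATTGT was at 7 of 44 kept (15.9%) and 21 of 527 lost promoter summits (3.98%), a difference of 11.9 points (3.69 to 25.5). In the other cocktails this difference was within counting error, at -2.31 points (-14.3 to 23.9) in Oct6-SK with 13 kept summits and 4.30 points (-7.54 to 19.9) in Oct4defSox2-SK with 36. Kept summits had median percentiles of 98.5 for Oct4defSox2 and 80.2 for Sox2 in Oct4-SK, compared with 37.7 and 32.8 for the lost ones. For Sox2 in the other cocktails they were 54.8 against 36.2 in Oct6-SK and 58.5 against 29.4 in Oct4defSox2-SK.

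Promoter summits present at day 5 and not at day 1 had more GC boxes than those lost by day 5 in 3 of the 5 series. In these series more of the gained than of the lost summits also lay within 100 bp of the start. The shares were 31.1% and 15.6% for Oct4, 32.7% and 16.7% for Sox2 in Oct4-SK and 32.0% and 13.7% in Oct4defSox2-SK. GC boxes were common at the starts of all coding genes, as given below, and the part of position in the GC box differences was not tested. GGGCGG lay near 89 of the 244 summits that Oct4 gained (36.5%) and 25 of the 128 that it lost (19.5%), a difference of 16.9 points (7.30 to 25.5). For Sox2 in Oct4-SK it was near 188 of 428 gained (43.9%) and 135 of 527 lost summits (25.6%), a difference of 18.3 points (12.3 to 24.2). In Oct4defSox2-SK it was near 838 of 1940 gained (43.2%) and 20 of 73 lost summits (27.4%), a difference of 15.8 points (4.42 to 24.98). The differences for Sox2 in Oct6-SK, 13.2 points (-1.46 to 25.97), and for Oct4defSox2, 8.91 points (-12.5 to 40.2), were within counting error. SoxOct was near 6.97% of the promoter summits gained and 10.2% of those lost by Oct4, a difference of -3.19 points (-10.1 to 2.49) within counting error.

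Among the 533 promoter sites of Oct4 over its 3 days, the largest class, 232 sites (43.5%), was found at day 5 alone, whereas this class held 17.3% of the other Oct4 sites. Day 1 alone held 120 promoter sites (22.5%) and 45.9% of the other sites. With only the Oct4 summits merged, all 3 days shared 48 promoter sites (9.01%, 6.86 to 11.7) and 6.10% of the other sites (5.70 to 6.53). The classes at promoters were thus weighted toward day 5.

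Over all 13 libraries, most promoter sites were found once. Of the 7485 sites, 6447 (86.1%) were in 1 library, 646 in 2, 191 in 3, 84 in 4 and 117 in 5 or more, and 0 were in 12 or 13. Promoter sites recurred slightly less than the others, with 13.9% and 15.9% in 2 or more libraries, a difference of -1.98 points (-2.77 to -1.16). For 5 or more libraries the difference was -0.59 points (-0.86 to -0.27), and for all 3 antibodies, met by 24 promoter sites, it was -0.55 points (-0.67 to -0.39). At scores of at least 10 these differences were 1.27 (-0.04 to 2.67), 0.47 (0.03 to 1.04) and 0.00029 points (-0.05 to 0.18). The lower recurrence at promoters was therefore not found at this cutoff. Scores are not scaled between libraries, and the cutoff kept 76.0% of the promoter summits of S151M and 0.58% of those of Oct6 M151S. With merging at 50 bp and all scores, the difference for 5 or more libraries was within counting error.

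By antibody, 2930 promoter sites (39.1%) were found with Oct4 alone, 2509 (33.5%) with Sox2 alone and 1608 (21.5%) with Oct6 alone, compared with 64.3%, 17.2% and 10.9% of the other sites. Oct4 and Sox2 shared 310 sites (4.14%, 3.71 to 4.62), against 5.86% of the other sites. Oct6 M151S contributed the most isolated set, with 1608 of its 1736 promoter sites (92.6%) in no other library. Its list reached lower scores than the others, and 400 of its 1737 promoter summits had a q-value under 0.05. Sharing was low for that library as a whole, with 7.54% of promoter summits and 14.6% of other summits within 100 bp of another library, whereas for S151M these shares were 25.1% and 18.7%. The share found in no other library was 78.2% for Sox2 in Oct4defSox2-SK at day 5, 75.1% for Oct4 S151M and 12.3% for Oct4defSox2 at day 5.

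The promoter summits of the smaller Oct4-antibody lists were often also in the larger ones. Of the 73 promoter summits of Oct4defSox2 at day 5, 64 (87.7%) had an Oct4defSox2 summit at day 1, 51 (69.9%) an Oct4 S151M summit and 46 (63.0%) an Oct4 summit at day 5. Of its other summits, 69.2%, 59.3% and 48.7% had one, and the S151M difference of 10.5 points (-1.16 to 20.4) was within counting error. Of the 130 promoter summits of Oct4 at day 7, 86 (66.2%) had an S151M summit and 79 (60.8%) an Oct4defSox2 summit at day 1, compared with 52.1% and 41.3% of its other summits. For Oct4 at day 5 the order was the opposite, with 44.2% of promoter summits and 65.5% of other summits in S151M, and 45.3% and 55.5% in Oct4defSox2 at day 1. Oct6 M151S shared at most 3.51% of its promoter summits with any library. These shares depend on the size of the list that is searched. Read the other way, 18.1% of the S151M promoter summits had an Oct4defSox2 summit at day 1.

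Sox2 promoter summits at day 5 were compared between cocktails in both directions of the 3 pairs, and were shared less often than other summits in 2 of the 6 comparisons, with the other 4 within counting error. Of the 472 promoter summits in Oct4-SK, 42 (8.90%) had a summit in Oct6-SK, compared with 17.3% of the other summits, a difference of -8.45 points (-10.9 to -5.37). Of the 1977 in Oct4defSox2-SK, 74 (3.74%) had one in Oct6-SK, compared with 6.77%, a difference of -3.03 points (-3.86 to -2.04). Of the 136 in Oct6-SK at day 5, 73 (53.7%) had a summit in Oct4defSox2-SK and 40 (29.4%) in Oct4-SK at that day, compared with 52.3% and 36.5% of the other summits, and both differences were within counting error. Of the 472 in Oct4-SK at day 5, 192 (40.7%, 36.3 to 45.2) had one in Oct4defSox2-SK, and 38.2% of the other summits did. In comparison, 44 of these 472 (9.32%) coincided with a day 1 Sox2 summit of that cocktail, compared with 19.9% of the other summits.

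**Figure D3:**
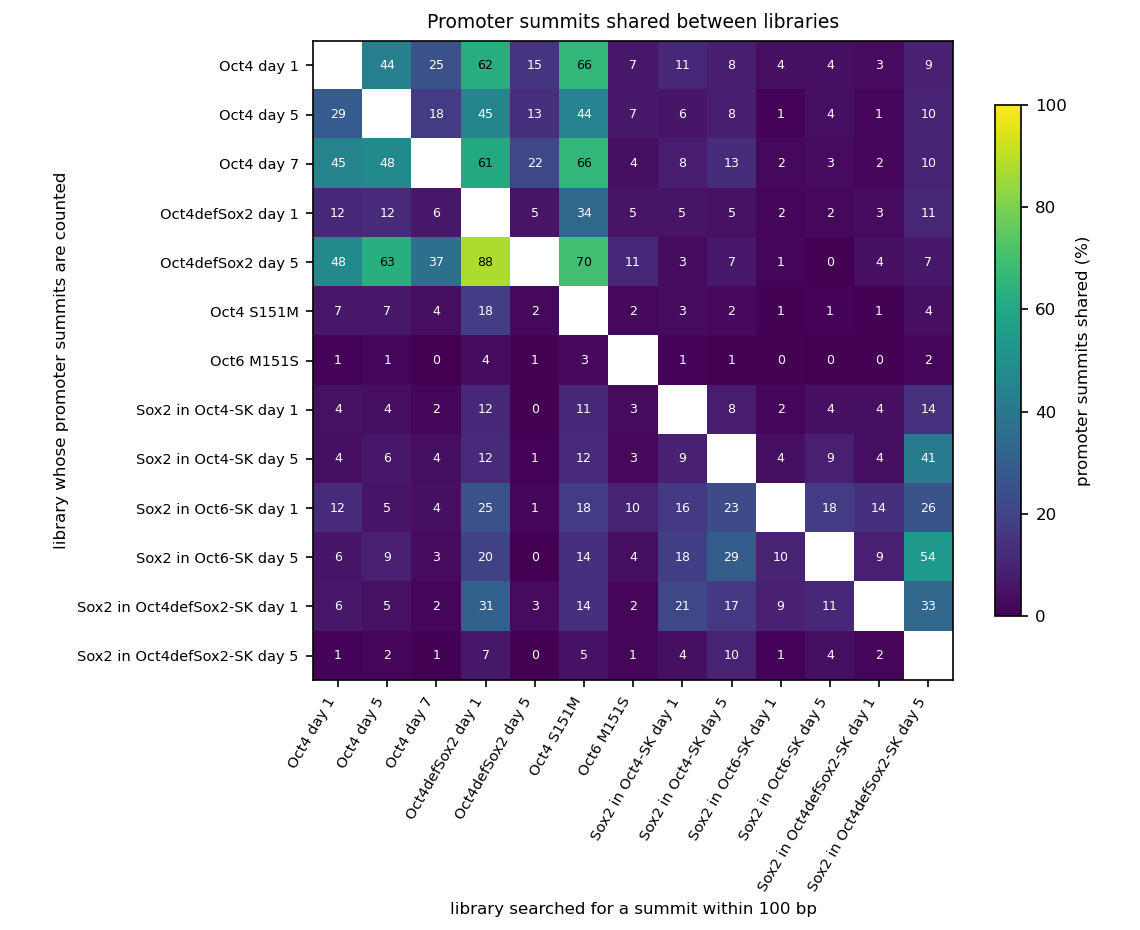
Each cell gives the percentage of the promoter summits of the library in the row that have a summit of the library in the column within 100 bp, with the scale from 0 to 100%. The highest share, 87.7%, lies in the block of the 6 Oct4-antibody libraries, where the row of Oct4 S151M reaches at most 18.1%. The row of Oct6 M151S is low throughout.

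Motifs at promoter sites followed the promoter as well as the factor. Words were sought on both strands within 100 bp of the centre of a site. For the starts of all coding genes the window was centred on the start itself, whereas promoter summits lay up to 1 kb from one. The part of this difference in position in the shares was not tested. A GC box (GGGCGG) was at 2095 of 7485 promoter sites (28.0%) and 2.01% of other sites, but it was also at 41.9% of the starts of all coding genes. A CCAAT box (CCAAT followed by C or G and then by A or G) was at 10.0% of promoter sites, 5.91% of other sites and 14.2% of all starts. The ETS word CCGGAAGT (1.88%), the NRF1 word GCGCATGC (1.58%), the CRE word TGACGTCA (0.99%) and the YY1 word AAGATGGCG (0.98%) were each above their share at other sites and below their share at all starts, which was 4.45%, 2.72%, 2.05% and 1.93%.

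The words of the POU and Sox factors showed the opposite order. SoxOct, which ends in the octamer and was allowed 2 mismatches, was at 169 promoter sites (2.26%), 4.55% of other sites and 0.54% of all starts. MORE or MORE+1, with 1 mismatch allowed, was at 385 (5.14%), 15.0% and 0.27%. The octamer ATGCAAAT was at 287 (3.83%), 5.20% and 0.88%, and the Sox word CCATTGT at 321 (4.29%), 5.91% and 1.76%. The AP-1 word TGACTCA was also at 321 promoter sites (4.29%), with 8.31% of other sites and 2.73% of all starts. For all 11 motifs the difference between promoter and other sites was past counting error, from -9.81 points for MORE or MORE+1 (-10.3 to -9.26) to 26.0 points for the GC box (24.97 to 27.01). The MORE difference was -1.72 points (-2.04 to -1.35) without S151M, in which 24357 of the 98889 other summits had the element. Within each of the 6 Oct4-antibody libraries the octamer share was higher at promoter summits than at the others, from 7.78% and 6.80% in S151M to 20.8% and 13.3% for Oct4 at day 7, whereas the sites of all 13 libraries together had the opposite order. The differences within libraries were not all past counting error, and that of S151M was within it. At scores of at least 10 the octamer difference was 0.37 points (-0.49 to 1.35) and that of the Sox word -0.0063 points (-0.84 to 0.94).

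By library, MORE or MORE+1 was near 37.0% of the promoter summits of Oct4defSox2 at day 5, 16.7% of those of Oct4 S151M, 16.2% of Oct4 at day 7, 10.8% at day 5 and 15.0% at day 1. It was near 28.2%, 24.6%, 7.32%, 13.02% and 10.3% of the other summits of these libraries. At promoters it was near 6.31% for Oct4defSox2 at day 1 and 0.46% for Oct6 M151S. SoxOct was near 29.2% of the promoter summits of Oct4 at day 7, 12.2% at day 5 and 16.3% at day 1, against 5.58% for Oct4defSox2 and 5.26% for S151M at day 1. The other summits of these libraries had SoxOct at 32.0%, 20.2%, 15.04%, 7.57% and 5.88%. Oct4 at day 1 exceeded Oct4defSox2 at day 1 by 10.7 points for SoxOct (6.25 to 16.2). In the Sox2 libraries SoxOct stood between 0.91% and 5.48%.

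The POU motifs became more frequent as a promoter site was found in more libraries. SoxOct was at 1.35% of the sites in 1 library, 4.49% of those in 2, 11.6% of those in 3 or 4 and 17.9% of those in 5 or more (12.05 to 25.89). MORE or MORE+1 was at 4.62%, 5.88%, 8.00% and 23.1% (16.4 to 31.5). The GC box did not follow this pattern, at 28.0%, 27.2%, 26.2% and 33.3%. Between sites in 5 or more libraries and sites in 1, the difference was 16.6 points for SoxOct (10.7 to 24.5) and 18.5 points for MORE or MORE+1 (11.7 to 26.9). The mix of antibodies changed as well. Of the 6447 sites in 1 library, 1608 were of Oct6 M151S and 1545 of Sox2 in Oct4defSox2-SK at day 5. Of the 117 sites in 5 or more, 38 were found with the Oct4 antibody only. These 38 held 18 of the 27 sites with MORE or MORE+1. The part of the mix in the motif shares was not tested.

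Away from promoters MORE or MORE+1 was less frequent at the recurrent sites (7.59% in 5 or more libraries, 15.9% in 1), with Oct4 S151M included. Without that library, the shares were 21.9% and 0.89% at promoters and 5.47% and 2.69% elsewhere. SoxOct rose with recurrence away from promoters too, at 14.4% and 3.55% over all libraries and 12.2% and 3.57% without S151M, where promoter sites had 16.4% and 1.13%.

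**Figure D4:**
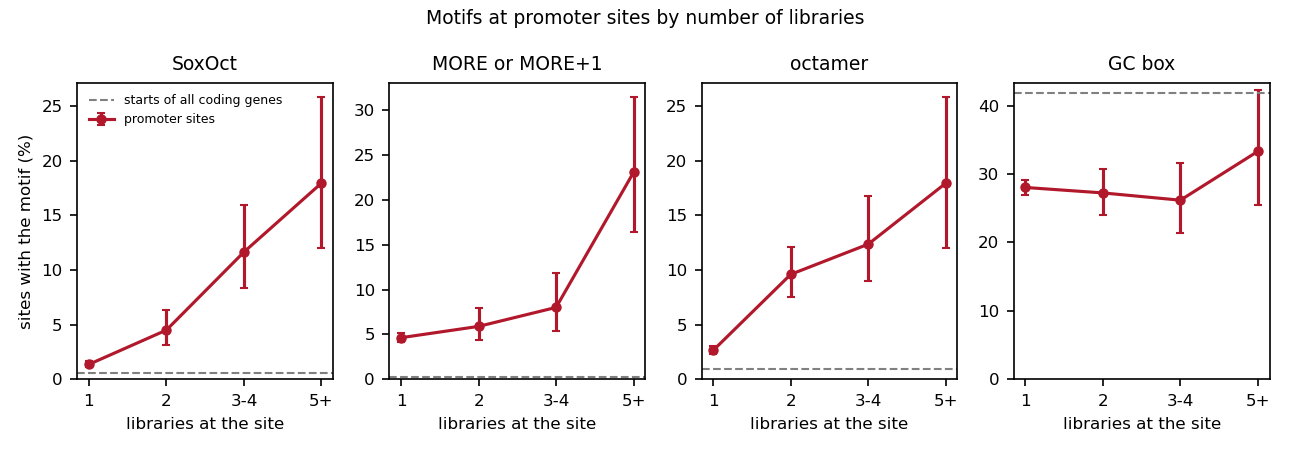
Each panel plots the percentage of promoter sites with a motif (y axis) against the number of libraries with a summit at the site (x axis). Points carry Wilson 95% intervals and the dashed line is the share at the starts of all coding genes. SoxOct, MORE or MORE+1 and the octamer rise with the number of libraries, to 17.9%, 23.1% and 17.9%, while the GC box stays between 26.2% and 33.3%.

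At the level of genes, 27.4% of all coding genes had a promoter summit in any library, 13.7% with the Oct4 antibody, 12.6% with the Sox2 antibody and 7.92% with the Oct6 antibody. Of these genes, 192 (0.879% of all coding genes) had promoter summits in 5 or more libraries and 166 (0.76%) had them with all 3 antibodies, at the same or separate sites. The last count was 55 with promoters within 500 bp, 90 with principal transcripts, 92 with M151S scores of at least 4, 352 within 2 kb and 2 at scores of at least 10. CpG-rich starts, taken as a GC share of at least 55% and a ratio of observed to expected CpG of at least 0.75 over 500 bp, were 34.5% of all coding genes. They made up 48.9% of the genes found with the Oct4 antibody, 54.8% with Sox2 and 51.3% with Oct6, which were 14.4 (12.5 to 16.3), 20.3 (18.3 to 22.2) and 16.8 points (14.4 to 19.2) above all genes. The highest share was 65.3% of the 75 genes of Oct4defSox2 at day 5 (54.1 to 75.1), and the lowest 45.7% of the 2148 genes of Oct4 S151M. Of the promoter sites, 7.92% lay within 1 kb of 2 or more coding genes. For comparison, 11.4% of the starts of all coding genes lay within 1 kb of another gene.

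The most widely found promoter site belonged to Arid5b, which encodes a DNA-binding protein of the ARID family. It lay at -943 bp from the nearest coding start, in an intron, and was found in 11 libraries and with all 3 antibodies. Its percentile was 72.8, 52.8 and 96.0 for Oct4 at days 1, 5 and 7, 96.6 for Oct4defSox2 at day 1, 85.5 for S151M and 14.6 for M151S. In the 5 Sox2 libraries that held it, the percentile lay between 69.9 and 99.1. The site was thus strong in all but the Oct6 M151S library and the middle of the Oct4 series, and it was absent from the lists of Oct4defSox2 at day 5 and of Sox2 in Oct6-SK at day 1.

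The site of Slc39a14, a metal ion transporter, was in 10 libraries and lay at -653 bp. It was ranked lower, with percentiles from 3.64 for Sox2 in Oct6-SK at day 1 to 98.5 for Sox2 in Oct4-SK at day 5. The intron site of Ccl7, a chemokine that draws monocytes, was 677 bp downstream of the start in 9 libraries, including all 6 of Sox2. Its percentile for Sox2 was at least 96.3 at day 5 in each cocktail and 12.9 at day 1 in Oct6-SK. Neither site had SoxOct or MORE.

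Nrarp, which encodes an inhibitor of Notch signalling, had its site at -59 bp in 9 libraries. The percentile was 87.3, 96.2 and 96.5 for Oct4 at days 1, 5 and 7, 97.7 for Oct4defSox2 at day 1 and 93 for S151M. For Sox2 it was 81.2 in Oct4-SK at day 1, and at day 5 it was 95.3 in Oct4-SK, 92.2 in Oct6-SK and 99.5 in Oct4defSox2-SK. The Nrarp site was thus high in the list of every library that held it.

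The site of Otud7b, a deubiquitinase, at -528 bp, was in all 6 Oct4-antibody libraries, with percentiles from 71.3 for Oct4defSox2 at day 5 to 99.7 for Oct4defSox2 at day 1, and in 3 Sox2 libraries between 35.5 and 86.5. Pipox, a peroxisomal oxidase, had its site 17 bp downstream in 9 libraries. Phc1, a Polycomb protein of embryonic stem cells, had a site at -94 bp in 8 libraries. It was ranked high for Sox2 at day 5, from 93.2 to 98.8, and low for Oct4 at day 5 (32.2) and S151M (20.9), whereas the percentile was 85.97 for Oct4defSox2 at day 1. At day 1 it was 97.4 for Sox2 in Oct6-SK and 63.99 in Oct4-SK. Its sequence holds the word CCATTGT 2 times, and its SoxOct match lay 91 bp from the centre with 2 mismatches.

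A second group of promoter sites was found in all 6 Oct4-antibody libraries and in 0 Sox2 libraries. Rnf169, a protein of the DNA damage response, had percentiles of at least 99.6 there, with scores of 120 for Oct4 at day 1, 259 at day 5, 103 at day 7, 532 and 290 for Oct4defSox2 at days 1 and 5 and 904 for S151M. Gabarapl2, an autophagy protein, had its site at -789 bp with percentiles of at least 99.1, and Vamp1, a vesicle fusion protein, at -325 bp with percentiles of at least 98.4. By mean percentile over all libraries that held each site, these were the top 3 in both of the following sets, merged over all libraries. The sets were the 49 promoter sites that Oct4 held at days 1, 5 and 7 and the 64 that Oct4defSox2 held at days 1 and 5. Within the Oct4 libraries of the first set, the lowest percentile was 99.2 at the Crlf2 site 438 bp downstream, above Gabarapl2 and Vamp1. Within the Oct4defSox2 libraries it was 99.4 at this Crlf2 site and 98.6 at Vamp1. MORE or MORE+1 was at 17 of the 49 and 27 of the 64 sites, and SoxOct at 14 and 4.

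Polr2a, which encodes the largest subunit of RNA polymerase II, had its MORE site at -457 bp in these 6 libraries and in Oct6 M151S. Its percentile was 71.4 for Oct4 at day 1, 95.8 at day 5 and 90.9 at day 7, 99.7 and 96.97 for Oct4defSox2, 99.8 for S151M and 94.0 for M151S. Crlf2, a cytokine receptor subunit, had MORE sites 438 and 848 bp downstream, in 7 and 8 libraries. The first was the promoter summit with the highest score of Oct4 at day 1 (153) and of S151M (1177). In M151S both Crlf2 sites were weaker, at percentiles of 19.5 and 63.0.

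**Figure D5:**
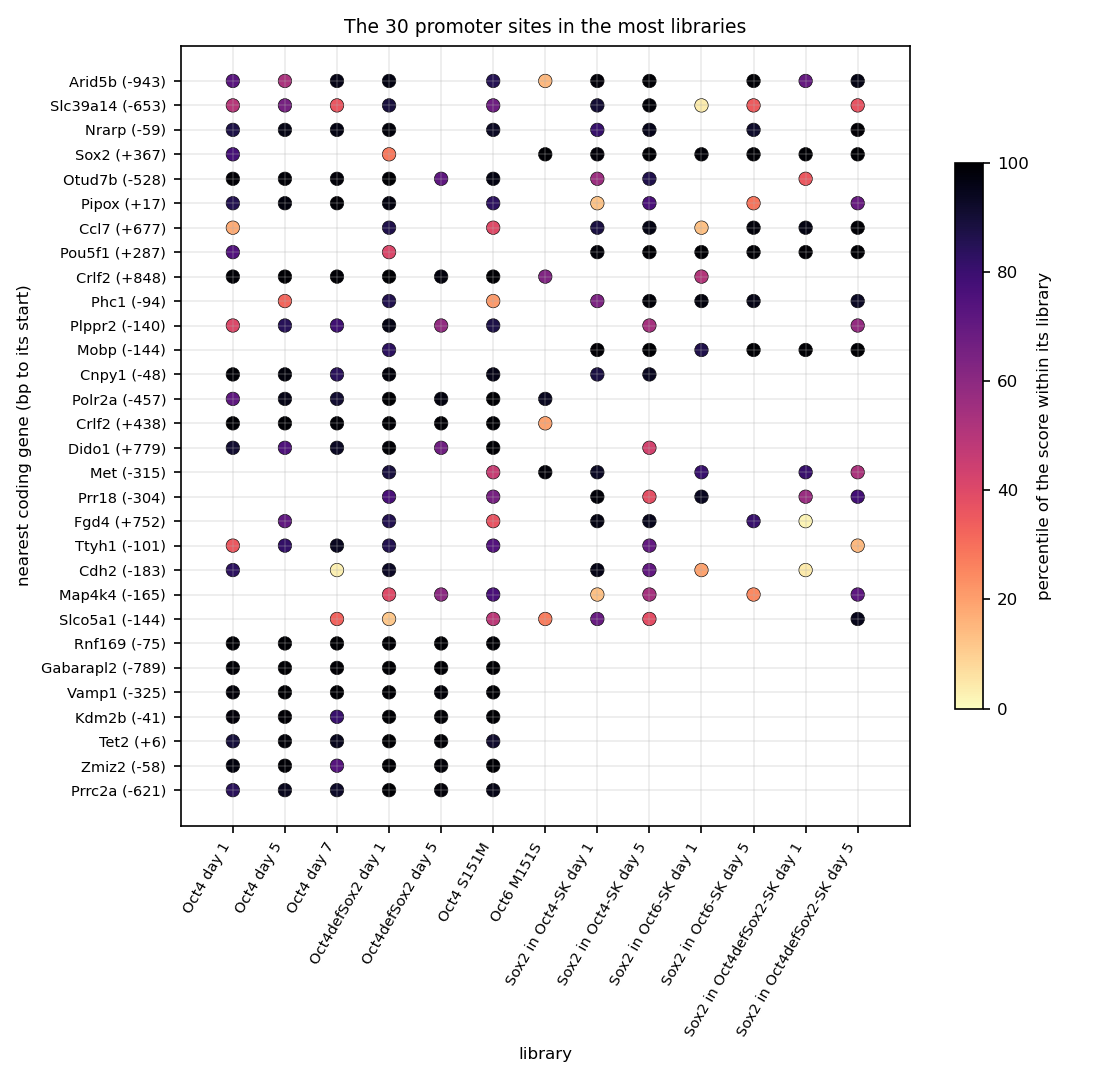
The plot shows the 30 promoter sites in the most libraries, ties ordered by mean percentile (rows, with the nearest coding gene and the distance of the site to its start in bp) against the 13 libraries (columns), with points coloured by the percentile of the score within the library. Rnf169, Gabarapl2 and Vamp1 are dark in the 6 Oct4-antibody libraries and empty in the others, and Mobp is present in all 6 Sox2 libraries.

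Sox2 held 7 promoter sites in all 3 cocktails at day 1 and 45 at day 5. The 7 were those of Mobp, Pou5f1, Sox2, Met, Prr18, Ccl7 and Cdh2. In the Sox2 libraries of day 1, the lowest percentile was 98.5 at the Pou5f1 site, 98.1 at the Sox2 site and 86.5 at Mobp. By mean percentile over all libraries that held each site, Mobp, a gene of myelin, was the highest of the 7, at -144 bp. Its percentile for Sox2 at day 1 was 99.4 for the Oct4-SK cocktail, 86.5 for Oct6-SK and 99.9 for Oct4defSox2-SK, it was at least 99.9 in each at day 5, and it was 83.3 for Oct4defSox2 at day 1. The 201 bp around it hold CTTTGTT 4 times on either strand. This word was chosen from the sequence itself, so the count is a description. The word was at 2.86% of all coding starts and 7.79% of merged promoter sites in windows of this length. 

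The 45 sites of day 5 were ranked by mean percentile over all libraries that held each site. The top sites were at Gm10801 and Gm10800, 2 predicted coding genes on chromosome 2. Their percentiles were at least 98.9 in the 4 Sox2 libraries that held them. In the Sox2 libraries of day 5 alone, the lowest percentile was 99.9 at Mobp, 99.6 at Gm10801 and 98.9 at Gm10800. The Gm10801 and Gm10800 sites lie in a stretch of chromosome 2 known for repeats. None of the 7 sites at day 1 and 0 of the 45 at day 5 had MORE or MORE+1, whereas SoxOct was at 1 and 3, and the Sox word CCATTGT at 0 and 10.

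Among the transduced factors, Pou5f1 and Sox2 had recurrent summits inside their own genes. The Pou5f1 site, which lay in a coding exon 287 bp from the start of the gene for Oct4, was in all 6 Sox2 libraries with percentiles of at least 98.5. It included Sox2 in Oct6-SK at day 1, at percentile 100, where no Oct4 virus was used. For Oct4 at day 1 its percentile was 74.8 and for Oct4defSox2 at day 1 it was 40.7. The summits of the 8 libraries lay between 275 and 304 bp from the start. The main Sox2 site lay in the coding exon 367 bp from the start, in 9 libraries, with percentiles of at least 98.1 for the highest summit in each Sox2 library and 99.9 for Oct6 M151S. The Sox2 virus was in every cocktail and an Oct4 virus in all but the Oct6 ones, and reads from virus and gene cannot be told apart in these exons where the virus was used. No promoter summit was listed at Klf4 or Pou3f1, the gene for Oct6.

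The strongest promoter summits found in Oct4 S151M alone were at Itsn2 (score 935), an adaptor of endocytosis, Max (887), the partner of Myc, and Dctn6 (741), a dynactin subunit. Itsn2 had MORE+1 3 bp from the summit and Dctn6 MORE 4 bp from it. Those of Oct6 M151S alone were at Cavin3 (score 18.6), Prpf4 and Eif3f (12.3 each), without a POU motif. The gene with the most separate promoter sites was Smarca2, a chromatin remodelling ATPase with 9 sites around 12 coding starts. Further genes reached 7 sites, among them Add3 around 11 starts and Alyref2 around 1.

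Among groups of genes, shares with a promoter summit are read against the 27.4% of all coding genes, and the groups were small apart from the zinc finger and receptor genes. Of 28 genes of naive pluripotency, 7 (25%) had one. Besides Sox2 and Pou5f1 these included Tet2, which oxidises methylated cytosine, with 1 site 6 bp downstream of its start in all 6 Oct4-antibody libraries, and Klf5 in 1 Sox2 library. Of 32 epithelial genes 9 (28.1%) had a promoter summit, with Cdh1, which encodes E-cadherin, in Oct6 M151S only. Of 31 mesenchymal genes 12 (38.7%) had one, led by Cdh2, which encodes N-cadherin, in 8 libraries, Vim in 4 and Acta2 in 3. The intervals of these 3 shares, 12.7 to 43.4, 15.6 to 45.4 and 23.7 to 56.2, all held the share of all genes.

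Regulators of chromatin had promoter summits at 22 of 48 genes (45.8%, 32.6 to 59.7). Of the genes listed 77.1% have a CpG-rich promoter, as do 70.6% of the Klf genes, compared with 34.5% of all genes, and the part of this in the shares was not tested. Kdm2b, which binds unmethylated CpG, was in 7 libraries, 6 of them with the Oct4 antibody. Ezh2, the methyltransferase of Polycomb, and Kdm4a were in 5 each. In the AP-1 family 4 of 15 genes had a summit, with Jund in 7 libraries and Junb in 2, and among immediate early genes 9 of 19, with Egr2 in 4 Oct4-antibody libraries. Of the Klf genes 9 of 17 had one, of the Sox genes 7 of 19, of the POU genes 7 of 15, and of the Hox genes 11 of 39. Pou6f1 was in 5 Oct4-antibody libraries and M151S, and Sox6 in 7 libraries.

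Housekeeping groups had shares from 33.3% to 53.8%. From 52.8% (complex I) to 80.8% (chaperones) of the genes of these groups have a CpG-rich promoter, compared with 36.5% of the histone genes given last and 34.5% of all genes, and the part of this in the shares was not tested. Splicing factors had promoter summits at 27 of 54 genes (50.0%, 37.1 to 62.9), chaperones at 14 of 26 (53.8%, 35.5 to 71.2), cytosolic ribosomal proteins at 31 of 79 (39.2%, 29.2 to 50.3), mitochondrial ribosomal proteins at 27 of 75 (36.0%, 26.1 to 47.3) and the proteasome at 16 of 43 (37.2%, 24.4 to 52.1), where the last 2 intervals held the share of all genes. Among these 5 groups Srsf11 and Mrpl21, with 4 libraries each, had the most. Cell cycle and replication genes had a summit at 16 of 44 (23.8 to 51.1%), tRNA synthetases at 16 of 37 (28.7 to 59.1%) and complex I at 12 of 36 (20.2 to 49.7%), where Ndufv2 was in 5 libraries. Of the histone genes of S phase 27 of 63 (42.9%, 31.4 to 55.1) had one, with Hist2h4 in 6 libraries.

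Genes named Zfp, most of which encode zinc finger proteins, had promoter summits at 141 of 365 (38.6%, 33.8 to 43.7). Zfp148 was in 8 libraries, Zfp428 and Zfp658 in 7 and Zfp384 in 6, and all but Zfp148 had summits in 6 Oct4-antibody libraries. Olfactory and vomeronasal receptor genes lay at the other end, with 116 of 1419 (8.17%, 6.86 to 9.72), and 0.07% of them had a CpG-rich start. Of these 116, 71 were found with the Oct4 antibody, 32 with Sox2 and 20 with Oct6.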

How the data were processed

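ChIP-seq of Oct4, Oct4defSox2, Oct4 S151M, Oct6 M151S and Sox2 was analysed as 13 lists of summits. According to the labels, the authors aligned reads to mm10 with Bowtie2 2.2.5, filtered them with SAMtools and called peaks with MACS2. The deposited score is the −log10 p-value at the summit, not scaled between libraries. For both swapped proteins the deposited peak tables add fold enrichment (a ratio to local background) and the −log10 q-value. The lowest score was 2.30 in Oct6 M151S and 4.00 elsewhere, so that library was called more loosely. Libraries held 1034 to 101151 summits. The 3 input libraries were not analysed here, and read depth is not given in the sources used here.

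Groups followed the labels for antibody, cocktail and day. The members and lists were chosen with earlier results of these data known. Shares have Wilson and differences Newcombe 95% intervals, and a difference was past counting error when its interval excluded 0. No p-value was computed. The 36 differences and 3 counts were recomputed under 13 alternatives. Comparisons of lost, kept and gained summits were added after the data were seen. Motifs were matched as fixed words. Sites named were the 10 in the most libraries, the top 3 by mean percentile or score of each class, the 3 with each POU element in the most libraries, the 3 genes with the most sites, up to 4 genes per list and the transduced genes. The mean percentile was taken over all libraries that held a site, also those outside the class. Merging and intervals were tested on simulated data. Python 3.11.15, numpy 2.4.6, pandas 2.3.3 and numba 0.67.0 were used, with matplotlib 3.10.9 for figures.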

Additional observations from a re-analysis of the deposited data

Results flagged for a closer look

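The change in promoter share from day 1 to day 5 differed between groups, by the difference of the changes with its 95% interval. The rise for Sox2 in Oct6-SK was smaller than that for Oct4, by a difference of -1.49 points (-2.75 to -0.21), and smaller than that for Sox2 in Oct4-SK, by -1.55 points (-2.79 to -0.30). The rise for Sox2 in Oct4defSox2-SK was larger than each of the others, by 2.96 points against Oct4 (1.97 to 3.90), 4.21 against Oct4defSox2 (2.39 to 5.72), 2.90 against Sox2 in Oct4-SK (1.94 to 3.80) and 4.45 against Sox2 in Oct6-SK (3.30 to 5.53).

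The excess of promoter summits among those kept to day 5 was larger for Oct4 than for 3 other series in percentage points. The differences were -16.6 points for Oct4defSox2 (-23.2 to -10.1), -19.1 points for Sox2 in Oct4-SK (-26.0 to -12.3) and -19.3 points for Sox2 in Oct4defSox2-SK (-29.8 to -7.96). The base shares differ, and the order depends on the scale. For Oct4defSox2, 5.26% of the promoter summits and 2.23% of the other summits were kept, which is a larger ratio than that of 43.6% and 24.0% for Oct4. Each series is 1 library per day, so differences between libraries and between factors cannot be told apart.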

How the results depend on the processing

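Under 13 alternatives 284 values were recomputed, of which 251 were counted as unchanged, and 22 of 39 results changed under none. A difference was counted as unchanged when its call stayed the same, also where its sign turned within counting error. Counts were held to a similar size instead. The cause of the changes below was not tested. With promoters taken within 500 bp, the Sox2 difference in kept summits for Oct6-SK was 6.68 points and no longer past counting error, with 4727 promoter sites and 55 genes of all 3 antibodies. Within 2 kb, S151M minus Oct4 was -0.40 points and Sox2 in Oct4defSox2-SK minus Oct4-SK at day 5 was 0.89 points, neither past counting error, with 11747 sites and 352 genes. With principal transcripts alone, the Oct6-SK kept difference was 7.34 points and 90 genes had all 3 antibodies.

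At scores of at least 10, differences no longer past counting error were Oct4 day 7 minus day 5 (-1.17 points), S151M minus Oct4 (-0.11), Sox2 in Oct6-SK minus Oct4-SK at day 1 (-0.23), Sox2 in Oct4defSox2-SK minus Oct4-SK at day 5 (0.14), the Sox word (-0.0063) and the CpG-rich share of Oct6 genes (20.03, from 11 genes). The sign turned for Oct4defSox2 minus Oct4 at day 5 (4.16), for recurrence in 2 or more libraries (1.27), in 5 or more (0.47) and with all 3 antibodies (0.00029), and for the octamer (0.37). The kept difference of Sox2 in Oct4-SK came past counting error (7.43). There were 2983 sites, 2727 genes and 2 genes of all 3 antibodies.

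With equal numbers of the strongest summits, the rise of Oct4defSox2 (1.93) and the Oct6-SK kept difference (7.74) were no longer past counting error, and the sign turned for S151M minus Oct4 (0.48) and for Sox2 in Oct6-SK at day 1 (0.15) and Oct4defSox2-SK at day 5 (-0.97) against Oct4-SK. Merging and sharing at 50 bp gave 3.50 for the Oct6-SK kept difference and -0.19 for 5 or more libraries, and at 250 bp 5.99 for the former, all within counting error. With M151S scores of at least 4, 92 genes had all 3 antibodies. No paired analysis was possible because each group has 1 library and no result comes from a test across samples. Without replicates, no value here separates conditions from libraries.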
